A study of Mus musculus with 15 samples.

Results

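The genes described here are 10 transcripts commonly used as readouts of the hypoxia-inducible factors (HIFs), leaving aside the enzymes of glycolysis: Bnip3, Pdk1, Adm, Egln3, Car9, Ndrg1, Vegfa, Slc2a1, Ankrd37 and P4ha1. They were taken from a named list, by matching gene symbols to the Ensembl identifiers of the deposited tables, and all 10 were found among 54838 genes. RNA was sequenced in 15 mouse libraries, 3 in each of 5 groups, in a study of what changes in cancer cells and in lung epithelium when 4T1 cells grow out in the lung. 4T1 is a mammary carcinoma line from BALB/c mice. One group held 4T1 cells from culture in DMEM with serum ("in vitro"), and another held 4T1 cells recovered from the lungs of BALB/c mice 7 days after tail vein injection ("in vivo"). The other groups were sorted lung epithelial cells, titled by the surface protein EpCAM, each library pooled from 5 lungs that had received 800000 neighbour-labelling 4T1 cells 7 days earlier. They came from distal lung, from the niche near the cancer cells, and from a niche group labelled shSox9, so every epithelial group, distal included, came from a lung that carried 4T1 cells. The labels do not say which cells received the shSox9 hairpin, nor the age of the mice, and no lung without cancer cells was analysed here. Whether the 4T1 replicates are separate cultures or animals is not labelled, so for 4T1 cells the p-values refer to a spread between libraries that may be technical.

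HIFs are transcription factors made of an oxygen-sensitive alpha subunit (Hif1a, Epas1 or Hif3a) and a stable partner, Arnt. When oxygen is plentiful, prolyl hydroxylases of the Egln family mark the alpha subunits, the VHL ubiquitin ligase binds the mark, and the protein is degraded. The control is thus mainly on the protein, and the mRNA of Hif1a need not move when HIF activity does. When oxygen is short, the pair binds short DNA motifs near its target genes. In the lung Epas1 is well known from endothelium and alveolar type 2 cells, the surfactant-producing cells of the alveolus. The 10 targets cover different tasks. In metabolism these are glucose entry (Slc2a1), keeping pyruvate from the citric acid cycle (Pdk1) and acid handling outside the cell (Car9). Bnip3 acts in removal of mitochondria and cell death signalling, and P4ha1 in collagen hydroxylation. Vegfa and Adm are signals to vessels, and Egln3 gives feedback on HIF itself. Ndrg1 and Ankrd37 are known mainly as stress- or hypoxia-induced.

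All 10 are protein-coding genes. On GRCm38, with GENCODE gene bounds, the metabolic genes lie at Slc2a1 chr4:119108711-119137983 (plus strand), Pdk1 chr2:71873224-71903858 (plus strand), Bnip3 chr7:138890836-138909519 (minus strand) and Car9 chr4:43506966-43513729 (plus strand). The signalling and feedback genes lie at Vegfa chr17:46016993-46032369 (minus strand), Adm chr7:110627661-110629820 (plus strand) and Egln3 chr12:54178981-54203860 (minus strand). The others lie at P4ha1 chr10:59323296-59373304 (plus strand), Ndrg1 chr15:66929318-66969640 (minus strand) and Ankrd37 chr8:45996902-46005707 (minus strand).

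Libraries held 15907316 to 30421705 counts, and 3 counts, the upper limit behind a count of 0, stood for 0.0986 to 0.189 CPM (counts scaled to library size; this covers counting error only). Levels below are CPM after TMM scaling over all 15 libraries, in the order of replicates 1, 2 and 3, unless TPM (scaled for transcript length) is named. The niche libraries differed from distal ones in cell markers: the summed level of 10 alveolar type 2 markers was 9573 to 12060 CPM in niche and 236863 to 317021 CPM in distal libraries, and all 10 were lower in the niche. The summed level of 10 macrophage markers was 2784 to 3727 CPM in niche and 251 to 376 CPM in distal libraries, with all 10 higher. For 8 fibroblast markers the sums were 12246 to 14025 CPM and 3745 to 4350 CPM, with 5 higher and 1 lower. Epcam itself was at 66.6, 71.8 and 29.5 CPM in niche and at 110.1, 90.6 and 110.1 CPM in distal libraries, and no gene of the 3 marker lists was at 0 in the niche. Marker sums of the other epithelial types were lower in the niche too. Alveolar type 1 markers summed to 330 to 418 CPM in niche and 4490 to 4819 CPM in distal libraries. For club markers the sums were 85.5 to 132 and 932 to 2194 CPM, and for ciliated markers 22.7 to 31.2 and 250 to 275 CPM. In bulk RNA, fewer cells of a type and less RNA per cell cannot be told apart. Sox9, the gene named by the hairpin, was at 84.4, 60.1 and 36.9 CPM in the libraries labelled shSox9 and at 61.6, 57.1 and 32.8 CPM in niche libraries (log2 fold change 0.26, SE 0.27, edgeR adjusted p = 0.55). The 4T1 RNA share estimated for these libraries further on gives 89.8% to 99.2% of the Sox9 level in niche libraries. In those labelled shSox9 it gives 70.2% to 82.3%, so Sox9 checks the label only weakly. With that RNA subtracted, a setting chosen after the data were seen, Sox9 was higher with the shSox9 label (log2 fold change 2.50, SE 0.73, edgeR adjusted p = 0.029), against a niche level of which little remained. A lower Sox9 level was thus not seen with either setting, and the libraries are called "the libraries labelled shSox9" throughout.

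The core of a HIF-binding site is ACGTG or, less strictly, GCGTG. RefSeq promoter windows on GRCm38.p6, from 250 bases before to 50 after a start site, were held for 9 of the 10 genes (for Ndrg1 none was used), and both cores were searched on both strands. ACGTG was present in 6 of the 9 windows and in 19.6% of all 32851 windows of the same length, GCGTG in 6 of 9 and in 32.4%, and at least 1 of them in 8 of 9 and in 43.8%. The 9 member windows held 54.7% to 71.7% G and C, against a median of 52.7% over all windows, and both cores are rich in these bases. The sequences below are stretches before the annotated start, 5′ to 3′ on the gene's strand, with every core in capitals (CACGT and CACGC are the cores on the other strand). The short Car9 stretch lies before the RefSeq start but inside the longer GENCODE gene bounds. The Ankrd37 window, counted above but not shown, lies wholly inside the GENCODE gene bounds. Pdk1 and Vegfa each had 2 windows, and only the one nearest to the GENCODE start was searched for these counts. They were chosen because these genes moved differently in the comparisons that follow: Bnip3 and Pdk1 fell most in 4T1 cells, Egln3 was not called there, Car9 changed in opposite directions in 4T1 cells and in the niche, and Vegfa fell in the niche and holds neither core.
Bnip3, chr7:138909520-138909756, minus strand: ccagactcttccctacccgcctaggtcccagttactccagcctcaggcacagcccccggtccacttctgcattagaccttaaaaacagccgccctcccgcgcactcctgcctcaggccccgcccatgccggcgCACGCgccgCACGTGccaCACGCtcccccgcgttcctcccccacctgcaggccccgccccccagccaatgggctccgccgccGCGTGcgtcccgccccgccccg
Pdk1, chr2:71872974-71873223, plus strand: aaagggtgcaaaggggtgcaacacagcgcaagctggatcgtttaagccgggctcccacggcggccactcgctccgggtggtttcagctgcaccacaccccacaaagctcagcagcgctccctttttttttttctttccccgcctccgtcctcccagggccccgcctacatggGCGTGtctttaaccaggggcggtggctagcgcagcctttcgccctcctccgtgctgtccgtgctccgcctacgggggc
Egln3, chr12:54203875-54204124, minus strand: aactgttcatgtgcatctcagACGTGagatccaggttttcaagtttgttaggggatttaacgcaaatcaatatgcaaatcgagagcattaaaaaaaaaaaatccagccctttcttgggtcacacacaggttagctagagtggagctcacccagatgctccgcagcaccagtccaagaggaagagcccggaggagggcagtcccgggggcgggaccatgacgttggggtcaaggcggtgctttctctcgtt
Car9, chr4:43506996-43507024, plus strand: ctatttccgatgCACGTacagcccgtcca
Vegfa, chr17:46032378-46032627, minus strand: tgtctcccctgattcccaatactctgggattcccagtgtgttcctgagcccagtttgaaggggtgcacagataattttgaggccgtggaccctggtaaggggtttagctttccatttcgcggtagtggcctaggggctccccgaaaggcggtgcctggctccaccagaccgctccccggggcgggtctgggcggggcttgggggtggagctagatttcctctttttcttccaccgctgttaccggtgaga

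The Bnip3 window held 5 core matches. A run of CACGTG reads as the ACGTG core on either strand and was counted on both, and it lies between a pair of GCGTG cores on the other strand. Pdk1 held 2 GCGTG cores, 1 of them across the start site itself and so outside the stretch shown. The single Egln3 core lies far from the start, 229 bases before it, and the single Car9 core lies close to it, 18 bases before. Vegfa had no match in its window, which says only that these letters are not in these 300 bases. A match is a description of the sequence and was not tested for binding here.

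**Figure D1:**
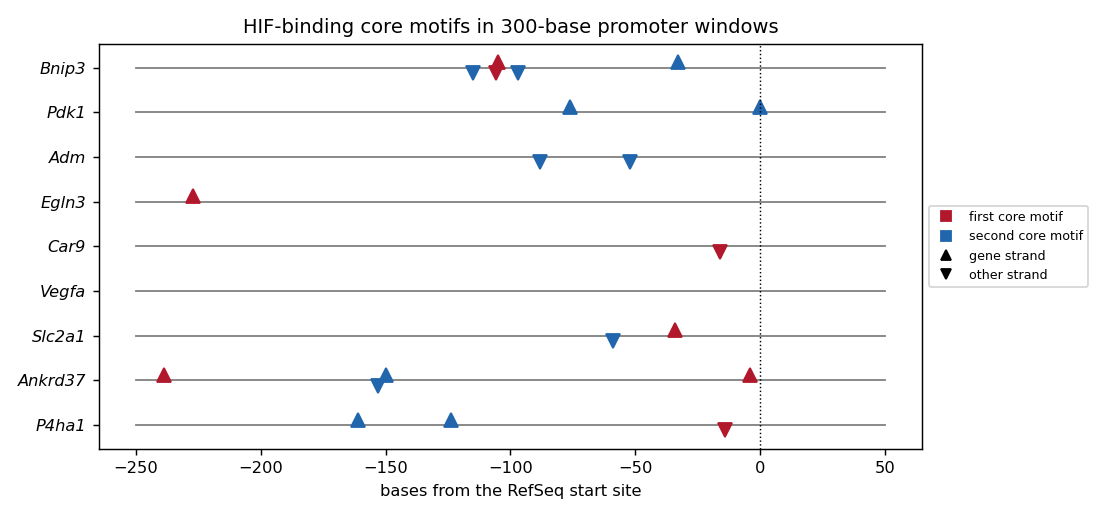
Positions of the first core (ACGTG, red) and the second core (GCGTG, blue) in 300-base RefSeq promoter windows of 9 HIF target genes. The x axis gives bases from the start site (0); triangles pointing up are on the gene's strand and those pointing down on the other. Vegfa has no match and Bnip3 has 5.

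Compared per transcript length (TPM), Bnip3 was the most abundant of the 10 in 4 of the 5 groups, at 137.9 ± 22.9 TPM (SD, n = 3) in 4T1 cells in vitro and 87.9 ± 16.7 TPM in distal epithelium. In 4T1 cells in vivo it was the fourth, at 22.7 ± 2.56 TPM, behind Ndrg1 at 33.3 ± 2.76, Slc2a1 at 30.6 ± 3.59 and Egln3 at 25.5 ± 1.03 TPM. The order of the genes thus differed between the cell types. Vegfa was the least abundant in 4T1 cells in vitro (2.96 ± 1.02 TPM) and the second most abundant in distal epithelium (36.9 ± 4.15 TPM), and Egln3 was the least abundant in distal epithelium (0.463 ± 0.240 TPM). Of the 10 genes, 6 (Bnip3, Pdk1, Car9, Ndrg1, Slc2a1 and Ankrd37) had their highest mean CPM in 4T1 cells in vitro. For Bnip3 that level overlapped with distal epithelium, and for the other 5 the 4T1 cells in vitro stood above every other group. How many of all genes peak there was not counted, so these counts describe the 10 genes only. Vegfa and P4ha1 were highest in distal epithelium, Adm in the libraries labelled shSox9, overlapping with distal epithelium, and Egln3 in 4T1 cells in vivo, overlapping with 4T1 cells in vitro.

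**Figure D2:**
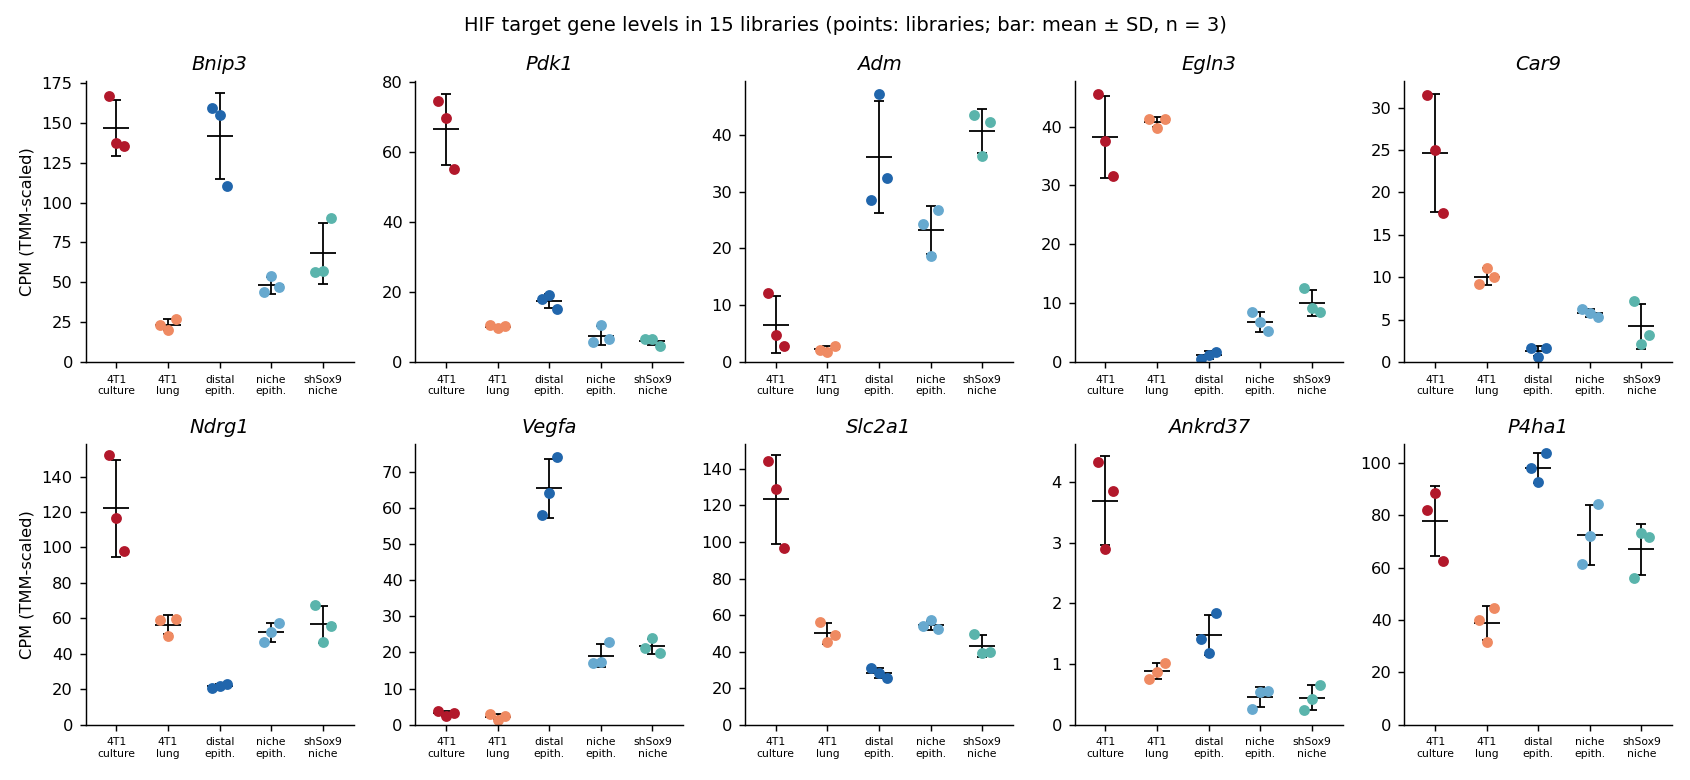
Level of each HIF target gene (CPM after TMM scaling, linear axis from 0) in each of the 15 libraries; points are libraries, the horizontal bar is the mean and the whiskers the SD (n = 3). Bnip3 and Pdk1 stand high in 4T1 cells from culture and low in 4T1 cells from lung, Egln3 does not, and Vegfa is highest in distal epithelium.

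In 4T1 cells the comparison of lung with culture asks which transcripts differ once the cells have grown in the lung. Of the 10 HIF targets, 8 were lower in 4T1 cells in vivo, none was higher, and Egln3 and Vegfa were not called (edgeR, Benjamini-Hochberg adjusted p below 0.05). At an unadjusted p below 0.05 and by DESeq2 the count of higher genes was likewise 0. Over all 14022 genes tested, 24% were called lower and 27% higher. All 8 fell by at least 2-fold, as did 3.82% of all genes tested, and the median log2 fold change was -1.29 over the 10 genes and 0.01 over all genes.

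The largest falls were in genes that act on mitochondria. Pdk1, the kinase that switches off pyruvate dehydrogenase and so keeps pyruvate from the citric acid cycle, was at 74.6, 69.6 and 55.0 CPM in vitro and at 10.4, 9.56 and 10.3 CPM in vivo. Every in vivo library lay far below every in vitro one, a 6.55-fold difference (log2 fold change -2.71, SE 0.13, edgeR adjusted p = 9.3e-07). Bnip3, a mitochondrial outer membrane protein that takes part in mitophagy, was at 167.0, 137.4 and 135.8 CPM in vitro and at 23.5, 19.9 and 26.9 CPM in vivo. The groups did not overlap, and the in vivo level was 6.25-fold lower (log2 fold change -2.64 with SE 0.13, edgeR adjusted p = 1.0e-06). Ankrd37, a small ankyrin-repeat protein, was at 4.32, 2.89 and 3.86 CPM in vitro and 0.753, 0.873 and 1.01 CPM in vivo, again without overlap (log2 fold change -2.06, SE 0.29, edgeR adjusted p = 3.8e-04). Ankrd37 overlaps Ufsp2 and Lrp2bp on the opposite strand, it is not stated whether counting used the strand, and its level is therefore uncertain.

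Slc2a1, the glucose transporter GLUT1, was at 144.2, 129.2 and 96.5 CPM in vitro and 56.4, 45.0 and 49.0 CPM in vivo. Car9, a carbonic anhydrase on the outer cell surface, was at 31.4, 24.9 and 17.6 CPM in vitro and 9.14, 11.1 and 9.97 CPM in vivo. For both genes all in vivo libraries were below all in vitro ones, with log2 fold changes of -1.29 (SE 0.15, edgeR adjusted p = 1.3e-04) and -1.28 (SE 0.20, edgeR adjusted p = 6.5e-04). Part of the Car9 gene is covered by an antisense transcript, Gm12454, which had at most 42.7 estimated counts in a library. Ndrg1, a stress-induced cytoplasmic protein, was at 152.0, 116.5 and 97.8 CPM in vitro and 59.3, 50.1 and 59.5 CPM in vivo. P4ha1, the catalytic subunit of a collagen prolyl 4-hydroxylase, was at 82.0, 88.7 and 62.6 CPM in vitro and 39.8, 31.7 and 44.5 CPM in vivo. These 2 fell by about the same amount, without overlap: log2 fold changes of -1.11 (SE 0.15, edgeR adjusted p = 3.4e-04) and -1.0 (SE 0.15, edgeR adjusted p = 5.4e-04).

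The signalling genes and the feedback gene did otherwise. Adm, the precursor of the vasodilator peptide adrenomedullin, was at 12.2, 4.76 and 2.77 CPM in vitro and 2.12, 1.79 and 2.83 CPM in vivo. The groups overlapped, and the call (log2 fold change -1.54, SE 0.49, edgeR adjusted p = 0.024) rested on the first in vitro library: without it the log2 fold change was -0.75 (edgeR adjusted p = 0.089), and the call was also lost without in vivo replicate 1 (-1.51) or 2 (-1.41). Vegfa, a growth factor for blood vessels, was at 3.69, 2.40 and 3.27 CPM in vitro and 2.83, 1.38 and 2.43 CPM in vivo, with overlap and no call (log2 fold change -0.49, 95% interval -1.20 to 0.22, edgeR adjusted p = 0.22). Egln3, a prolyl hydroxylase that is both a HIF target and a brake on HIF, was at 45.5, 37.6 and 31.7 CPM in vitro and 41.3, 39.8 and 41.3 CPM in vivo. Its groups overlapped, with a log2 fold change of 0.10 (95% interval -0.19 to 0.39, edgeR adjusted p = 0.55), an interval that holds no 2-fold change.

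The in vivo 4T1 libraries carried RNA of lung cells. By 412 genes that reach 20 CPM in both distal and niche epithelium and at most 1% of the lower of these levels in cultured 4T1 cells, this share was 3.15%, 4.43% and 6.46% of the level in niche libraries, and the macrophage marker sum was 28.6 to 155.6 CPM in vivo and 10.0 to 12.5 CPM in vitro, where 6 of the 10 markers were at 0. The share alone, at the niche level of each gene, gives 34.5% to 57.4% of the Adm level and 21.3% to 61.5% of the Vegfa level in vivo. With it subtracted, the same 8 genes were called lower: Adm then had a log2 fold change of -2.31 (edgeR adjusted p = 0.0054), and Vegfa, still not called, -1.10 (edgeR adjusted p = 0.054).

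In the lung, the comparison of niche with distal epithelium asks how epithelium near the cancer cells differs from that farther away. The HIF targets split: 4 were higher in the niche (Egln3, Car9, Ndrg1 and Slc2a1) and 6 were lower (Vegfa, Ankrd37, Bnip3, Pdk1, Adm and P4ha1). Over all 17641 genes tested, 28.5% were called higher and 25.8% lower, and the 10 genes had a median log2 fold change of -0.47 against 0.02 over all genes. The 4 higher genes rose at least 2-fold, which 12.5% of all genes did, and 4 of the 6 lower ones (Vegfa, Ankrd37, Bnip3 and Pdk1) fell at least 2-fold, which 16.4% of all genes did. On the TMM scale the niche and distal libraries did not overlap in any of the 10 genes. Before that scaling Adm did overlap, at 19.2 to 27.0 CPM in niche and 22.1 to 39.8 CPM in distal libraries. So did P4ha1, at 64.6 to 84.7 and 75.9 to 85.0 CPM. The share of all genes without overlap was not counted on either scale, so this describes the 10 genes only.

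Slc2a1 was at 53.9, 57.2 and 52.2 CPM in the niche and 30.9, 28.1 and 25.6 CPM in distal libraries, a 2.02-fold rise (log2 fold change 1.02, SE 0.12, edgeR adjusted p = 3.3e-05). Ndrg1 was at 46.6, 52.3 and 57.5 CPM in the niche and 20.4, 21.7 and 23.1 CPM in distal libraries, a 2.52-fold rise (log2 fold change 1.33, SE 0.14, edgeR adjusted p = 1.6e-05). The niche level of both was close to that of 4T1 cells in vivo. Car9 was at 6.20, 5.76 and 5.33 CPM in the niche and 1.61, 0.590 and 1.69 CPM in distal libraries (log2 fold change 2.22, SE 0.48, edgeR adjusted p = 0.0024). Egln3 was at 8.53, 6.71 and 5.20 CPM in the niche and 0.536, 1.25 and 1.76 CPM in distal libraries, the largest rise of the 10 (log2 fold change 2.61, SE 0.37, edgeR adjusted p = 1.3e-04). Both were low in distal libraries, where Car9 had 54 and Egln3 had 48 counts over the group.

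Among the genes that were lower, Vegfa fell most, from 58.1, 64.1 and 74.2 CPM in distal to 17.0, 17.5 and 22.9 CPM in niche libraries (log2 fold change -1.71, SE 0.15, edgeR adjusted p = 3.5e-06). Bnip3 was at 159.5, 155.3 and 110.7 CPM in distal and 43.7, 53.9 and 46.8 CPM in niche libraries (log2 fold change -1.49, SE 0.20, edgeR adjusted p = 7.5e-05). Both were well separated between the groups. The summed levels of alveolar type 2, alveolar type 1, club and ciliated markers were higher in the same distal libraries, and their part in these differences was not tested. Pdk1 was at 17.9, 19.0 and 15.1 CPM in distal and 5.54, 10.5 and 6.50 CPM in niche libraries (log2 fold change -1.14, SE 0.25, edgeR adjusted p = 0.0022). Ankrd37, with 61 counts over the distal and 27 over the niche libraries, was at 1.41, 1.18 and 1.84 CPM and at 0.264, 0.540 and 0.558 CPM (log2 fold change -1.63, SE 0.50, edgeR adjusted p = 0.017). Its call was lost without distal replicate 3 (-1.45) or niche replicate 1 (-1.34).

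The 2 smallest falls were fragile. Adm was at 28.5, 47.2 and 32.4 CPM in distal and 24.2, 18.6 and 26.8 CPM in niche libraries (log2 fold change -0.57, SE 0.19, edgeR adjusted p = 0.027), and the call was lost without distal replicate 2 (-0.32) or without niche replicate 1 (-0.60) or 2 (-0.42). P4ha1 was at 97.9, 92.5 and 103.7 CPM in distal and 61.3, 72.1 and 84.1 CPM in niche libraries (log2 fold change -0.37, SE 0.14, edgeR adjusted p = 0.041), and the call was lost in 5 of the 6 fits that left out a distal or niche library. The scale also matters for the lower genes. On the authors' TPM, without TMM scaling, the median log2 fold change of all genes shifts by 0.56 towards the niche, and there Pdk1 (0.01), Adm (0.01) and P4ha1 (0.24) were not lower, Ankrd37 (-0.76, limma adjusted p = 0.0504) was not called, and only Vegfa (-1.13) and Bnip3 (-0.91) remained called lower. Relative to that shift the same TPM values were -0.55 for Pdk1, -0.55 for Adm and -0.32 for P4ha1.

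**Figure D3:**
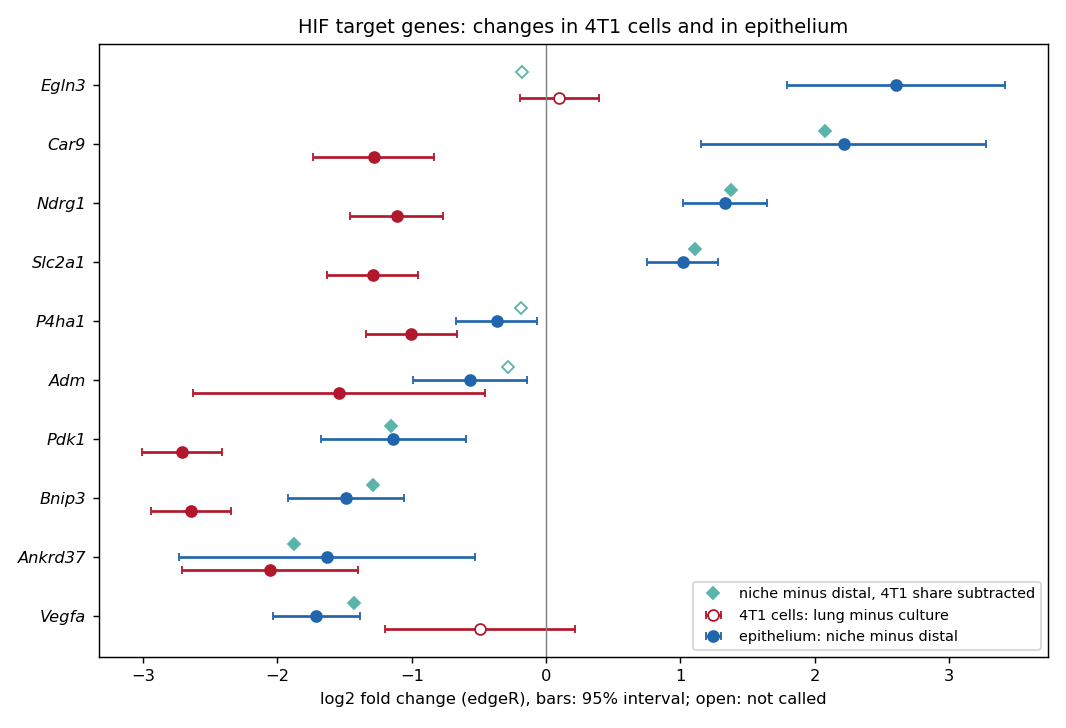
Log2 fold changes of the 10 HIF target genes in 4T1 cells (lung minus culture, red circles), in epithelium (niche minus distal, blue circles) with 95% intervals, and niche minus distal after subtraction of the estimated 4T1 RNA share (green diamonds, no interval drawn). Filled symbols have an edgeR adjusted p below 0.05; Egln3 lies at 2.61 before and -0.18 after subtraction, whereas Car9, Ndrg1 and Slc2a1 stay to the right of 0.

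The niche libraries held transcripts that mark 4T1 cells against distal epithelium. From 34 genes that reach 10 CPM in both 4T1 groups and at most 2% of the lower of these levels in distal epithelium, none of them one of the 10, the 4T1 share was 16.7%, 16.7% and 8.97% in niche libraries, 18.3%, 12.8% and 8.65% in the libraries labelled shSox9, and between -0.23% and 0.40% in distal libraries. The distal values lie near 0 by the choice of these genes. The genes were not screened against macrophages, fibroblasts or niche epithelium, so RNA of those cells may count in the share. How much of it does was not tested. Because Egln3 is abundant in 4T1 cells and almost absent from distal epithelium, this share alone amounts to 84.7%, 110.3% and 78.3% of its level in the 3 niche libraries. After subtraction the Egln3 log2 fold change was -0.18 (edgeR adjusted p = 0.88), so its higher level in the niche did not remain. For Car9 the share amounts to 18.9% to 31.7% of the niche level, for Ndrg1 to 9.75% to 21.4% and for Slc2a1 to 9.58% to 16.5%. These 3 remained called higher after subtraction, at log2 fold changes of 2.08 (edgeR adjusted p = 0.019), 1.38 (edgeR adjusted p = 4.9e-05) and 1.11 (edgeR adjusted p = 6.0e-05). The macrophage and fibroblast marker sums were also higher in the same niche libraries, and their part in the rise of these 3 genes was not tested. Of the lower genes, Vegfa (-1.43), Bnip3 (-1.29), Pdk1 (-1.15) and Ankrd37 (-1.88) remained called, and Adm (-0.29) and P4ha1 (-0.19) did not. The share gives only 0.83% to 2.19% of the niche Adm level and 4.58% to 11.1% of the P4ha1 level. Library totals and TMM factors were computed anew after subtraction, which shifted the log2 fold changes of all genes by a median of 0.097. Subtraction alone only lowers niche counts, so the smaller falls of Adm and P4ha1 came with the new scaling. For Ankrd37 the share amounts to 15.7% to 58.9% of the niche level. Subtraction left it at 0.0927, 0.371 and 0.499 CPM before TMM scaling. In niche replicate 1 that is below the 0.139 CPM that 3 counts stood for.

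**Figure D4:**
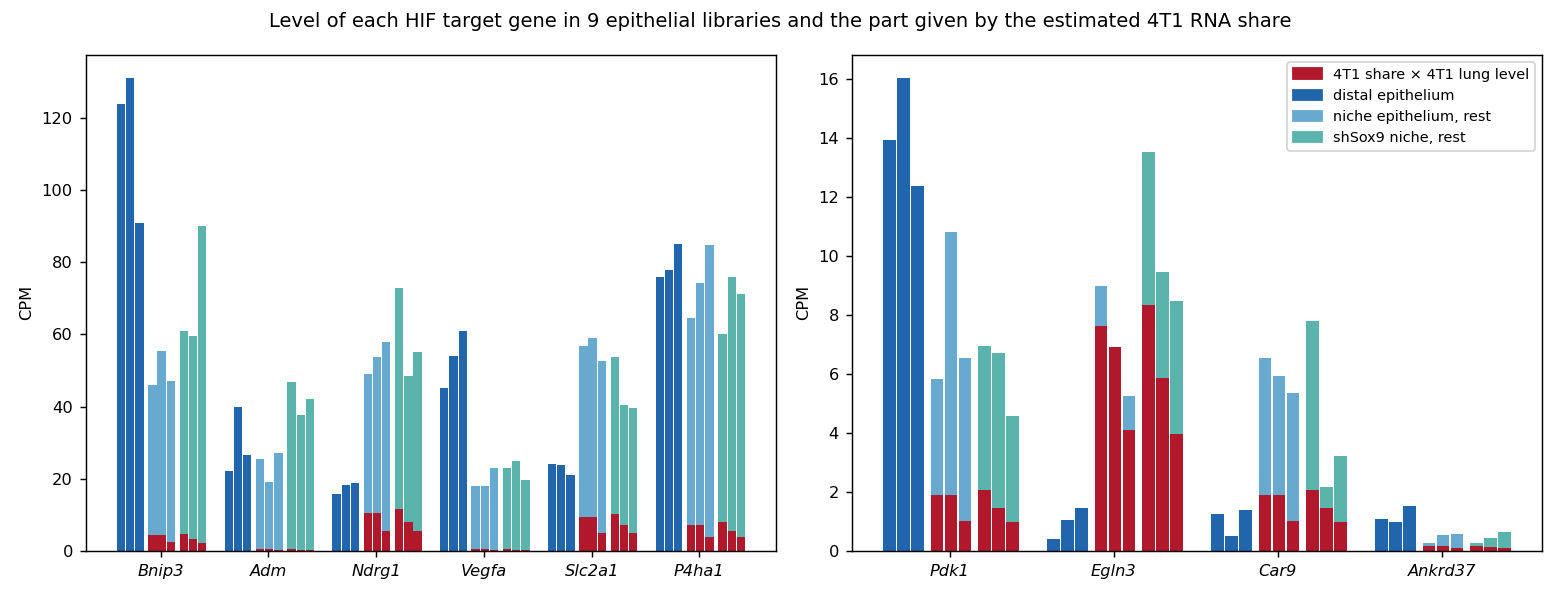
Level (CPM before TMM scaling, linear axis) of the 10 HIF target genes in each distal, niche and shSox9-labelled library, 1 bar per library; the dark red part is the estimated 4T1 share of the library times the level in 4T1 cells in vivo, drawn at most to the bar's height (for Egln3 in niche replicate 2 it exceeds it, at 110.3%). The red part fills most of each niche Egln3 bar and little of the Adm, Vegfa and Bnip3 bars.

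Between the libraries labelled shSox9 and the other niche libraries, edgeR called 1 of the 10 genes higher, Adm, and none lower, whereas at an unadjusted p below 0.05 it was 2 higher and 1 lower, and DESeq2 gave 1 higher and 0 lower. Over all 17641 genes tested, 9.68% were called higher and 10.8% lower. Adm was at 43.5, 36.3 and 42.4 CPM in the libraries labelled shSox9 and at 24.2, 18.6 and 26.8 CPM in niche libraries, without overlap (log2 fold change 0.81, SE 0.19, edgeR adjusted p = 0.012). The call was lost without niche replicate 2 (0.67, edgeR adjusted p = 0.052) and when all 15 libraries shared 1 fit (0.81, edgeR adjusted p = 0.11). In the same libraries all 10 alveolar type 2 markers were higher (summed level 32723 to 59507 CPM), and 9 of 10 macrophage markers were lower (137 to 831 CPM); their part in the difference was not tested. Bnip3 (log2 fold change 0.50, 95% interval 0.08 to 0.93, edgeR adjusted p = 0.092) and Slc2a1 (-0.34, 95% interval -0.60 to -0.09, edgeR adjusted p = 0.060) did not overlap between the groups but missed the threshold. Without the first library labelled shSox9, both were called, Bnip3 at 0.63 (edgeR adjusted p = 0.039) and Slc2a1 at -0.46 (edgeR adjusted p = 0.013). With replicate number as a block in the fit, Slc2a1 was called lower as well.

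The other 7 genes overlapped between these groups. Vegfa was at 21.4, 24.0 and 19.8 CPM with the shSox9 label (log2 fold change 0.19, 95% interval -0.13 to 0.51), and P4ha1 at 55.9, 73.3 and 71.5 CPM (-0.11, 95% interval -0.41 to 0.19). Car9 was uneven among the libraries labelled shSox9, at 7.23, 2.10 and 3.22 CPM, and its interval was wide (-0.46, 95% interval -1.41 to 0.49). Egln3 was at 12.6, 9.11 and 8.52 CPM (0.56, 95% interval -0.12 to 1.24, edgeR adjusted p = 0.24), and with the 4T1 share subtracted, which leaves little of the niche level, it was called higher (2.39, edgeR adjusted p = 0.048). The 4T1 share itself differed by -0.86 percentage points between the groups (exact two-sided permutation p = 0.9). With 3 libraries in each group this test cannot give a p-value below 0.1, so it does not show that the shares are equal. Against the distal libraries, which the niche comparison also uses, the libraries labelled shSox9 had log2 fold changes of 3.17 for Egln3, 1.75 for Car9, 1.45 for Ndrg1 and 0.67 for Slc2a1, and of -1.52 for Vegfa, -0.99 for Bnip3, -1.50 for Pdk1, -1.66 for Ankrd37, -0.48 for P4ha1 and 0.25 for Adm. All but Adm were called by edgeR, that is 4 higher and 5 lower, where 21.7% and 22% of all genes were. Of these, Ankrd37 was not called without shSox9-labelled replicate 1 (-1.36) or 2 (-1.64) or distal replicate 3 (-1.47), and P4ha1 not without distal replicate 3 (-0.44), while Adm was called without distal replicate 2 (0.49). The 4T1 share gives 46.6% to 61.9% of the Egln3 level with the shSox9 label. With it subtracted, Car9 (1.47, edgeR adjusted p = 0.095) and P4ha1 (-0.33, edgeR adjusted p = 0.071) were not called, and Egln3 was still called (2.21, edgeR adjusted p = 0.048). Here too the scaling was computed anew, with a median shift of 0.089 over all genes.

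Cancer cells and niche epithelium from lungs at the same day were set side by side. Of the 10 genes, Egln3 was higher in the cancer cells (log2 fold change 2.57, SE 0.24, edgeR adjusted p = 1.6e-07), and 4 were lower: Adm (-3.37, SE 0.41), Vegfa (-3.11, SE 0.23), Bnip3 (-1.04, SE 0.19) and P4ha1 (-0.91, SE 0.16), against 28.9% of all 18242 genes called higher and 35.9% lower. The 2 vessel-directed signals thus differed most, with Vegfa at 2.83, 1.38 and 2.43 CPM in 4T1 cells in vivo and 17.0, 17.5 and 22.9 CPM in the niche. Slc2a1 and Ndrg1 overlapped between the cancer cells and the niche, with log2 fold changes of -0.12 (95% interval -0.42 to 0.18) and 0.11 (95% interval -0.22 to 0.45), neither of which holds a 2-fold difference. Car9 (0.80, edgeR adjusted p = 0.058), Ankrd37 (0.96, edgeR adjusted p = 0.051) and Pdk1 (0.42, edgeR adjusted p = 0.090) missed the threshold. Pdk1 passed it without niche replicate 2 (0.72).

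The change in 4T1 cells and the change in epithelium were compared directly, as the difference of the log2 fold changes. For 7 genes the change in 4T1 cells was the more negative one: Car9 by 3.44 (SE 0.55), Egln3 by 2.46 (SE 0.38), Ndrg1 by 2.38 (SE 0.23), Slc2a1 by 2.25 (SE 0.20), Pdk1 by 1.51 (SE 0.29), Bnip3 by 1.09 (SE 0.26) and P4ha1 by 0.57 (SE 0.22, edgeR adjusted p = 0.044). For Vegfa it was the less negative one, by 1.29 (SE 0.31, edgeR adjusted p = 0.0027). Over all genes 21.2% were called lower and 29.1% higher in this difference, with a median of 0.30, and the median of the 10 genes was -1.30. The 8 called genes compare with 50.3% of all genes called in either direction. P4ha1 was not called without distal replicate 1 (-0.58) or 2 (-0.54), nor among genes with a mean of at least 1 CPM in 1 group (-0.53, edgeR adjusted p = 0.055). Adm (-0.90) was called only without in vitro replicate 3 (-1.39), and Vegfa was not called once the lung cell share was subtracted from 4T1 cells in vivo (0.56). Car9, Ndrg1 and Slc2a1 fell in 4T1 cells and rose in the niche. Bnip3, Pdk1, Adm, Ankrd37 and P4ha1 were called lower in both. The Egln3 difference turned to 0.38 (edgeR adjusted p = 0.72) once the 4T1 share was subtracted from the niche libraries.

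The factors and their regulators were read from a list of 16 genes. Hif1a was at 281.8, 257.1 and 189.4 CPM in 4T1 cells in vitro and at 250.4, 220.8 and 257.6 CPM in vivo, overlapping, with a log2 fold change of 0.01 (SE 0.14, edgeR adjusted p = 0.97). In epithelium Hif1a rose from 134.0, 110.7 and 112.4 CPM in distal to 177.2, 189.2 and 201.9 CPM in niche libraries (log2 fold change 0.74, SE 0.11, edgeR adjusted p = 1.4e-04). Epas1, the alpha subunit also called HIF-2 alpha, went the other way, from 231.1, 234.0 and 218.3 CPM to 115.4, 94.0 and 107.7 CPM (-1.04, SE 0.10, edgeR adjusted p = 7.2e-06). The same niche libraries had higher macrophage and fibroblast marker sums and a lower alveolar type 2 sum, whose part was not tested. With the 4T1 share subtracted, 4 of the 16 genes were called higher and 6 lower in the niche, against 26.9% and 22.3% of all genes. Cultured 4T1 cells had 1 count of Epas1 in all, and 4T1 cells in vivo had 4.38, 7.17 and 8.45 CPM (edgeR adjusted p = 6.6e-06), of which the lung cell share alone gives 65.4% to 80.8%. Arnt overlapped in both comparisons (0.00 and 0.11, not called), and Hif3a had too few counts to be tested in 4T1 cells and was not called in the niche (-1.13, edgeR adjusted p = 0.11).

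Among the regulators, 4 fell in 4T1 cells in vivo: Cited2, a competitor of HIF for its coactivators (-1.21, SE 0.29), Hif1an, the asparagine hydroxylase FIH (-0.68, SE 0.10), the oxygen sensor Egln1 (-0.42, SE 0.15) and the ligase scaffold Cul2 (-0.39). The 2 that were higher were Epas1 and Ep300 (0.33), of 14 tested, where 24% of all genes were lower and 27% higher. In the niche 6 of 16 were lower, among them Egln1 (-0.82, SE 0.21) and Cited2 (-0.71, SE 0.12), and 4 were higher, among them Hif1a, where 25.8% of all genes were lower and 28.5% higher. Between the libraries labelled shSox9 and the other niche libraries only the coactivator Crebbp was called of the 16, and it was higher (0.33, SE 0.11, edgeR adjusted p = 0.048), where 9.68% of all genes were.

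A further list held 30 HIF targets. In 4T1 cells 17 of 27 tested fell and 2 rose, against 24% and 27% of all genes (median log2 fold change -0.50, against 0.01 over all genes). Ak4, a mitochondrial adenylate kinase, went from 52.5, 51.9 and 47.6 CPM in vitro to 6.78, 6.48 and 3.64 CPM in vivo (-3.15, SE 0.20), Stc2, a secreted glycoprotein, had a log2 fold change of -3.31 (SE 0.32), and Ero1l, an oxidase for protein disulfides in the endoplasmic reticulum, one of -1.52 (SE 0.11). Angptl4, a secreted inhibitor of lipoprotein lipase, rose (3.93, SE 0.27), and the lung cell share alone gives 39.4% to 101.1% of its in vivo level. In the niche 14 of 30 rose and 7 fell, against 28.5% and 25.8% of all genes (median 0.26, against 0.02). In the difference of the 2 changes 13 of 30 were lower in 4T1 cells, 6 were higher and 11 were not called, against 21.2% lower and 29.1% higher over all genes. In niche against distal epithelium, Car12, another surface carbonic anhydrase, rose by 2.12 (SE 0.44). The collagen cross-linking enzyme Loxl2 rose there by 1.31 (SE 0.18), while Stc2 fell (-1.46, SE 0.22). The collagen gene Col1a1, a fibroblast marker, was higher in the same niche libraries, at 6059, 7295 and 6227 CPM against 1284, 1497 and 1248 CPM, and its part in the rise of Loxl2 was not tested. With the shSox9 label 7 of 30 were higher, where 9.68% of all genes were, among them Stc2 (0.89, SE 0.22), P4ha2 (0.62, SE 0.13) and Ddit4 (0.57, SE 0.18), and 1, Mif, was lower (-0.55, SE 0.12), where 10.8% were.

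The glycolytic enzymes, which HIF also controls, fell in 4T1 cells in vivo in 10 of 13 cases with none higher (median -1.12), where 24% of all genes fell. In the niche 11 of 13 were higher and none lower (median 0.83), where 28.5% of all genes were higher. The 4T1 share gives from 9.46% of the niche level, for Hk2, to 51.0%, for Eno1. With it subtracted, a setting chosen after the data were seen, 8 of 13 were called higher and 0 lower (median 0.70), where 26.9% of all genes were higher, and Tpi1 (0.12), Hk1 (0.22) and Aldoa (0.25) were no longer called. All 10 macrophage markers were higher in the same niche libraries, and their part was not tested. Ldha, lactate dehydrogenase A, was at 2009, 1866 and 1646 CPM in vitro and 740, 642 and 802 CPM in vivo (-1.33, SE 0.11). In the niche Eno1, an enolase, had a log2 fold change of 1.87 (SE 0.19) and Pkm, a pyruvate kinase, one of 1.32 (SE 0.15), and after subtraction these were 1.29 (SE 0.15) and 0.98 (SE 0.13). In the difference of the 2 changes all 13 were lower in 4T1 cells, and 12 of 13 after subtraction, where 21.2% and 17.5% of all genes were. With the shSox9 label 6 of 13 were lower than in the niche, among them Pfkp (-0.86, SE 0.21) and Gapdh (-0.68, SE 0.14), and none was higher, where 10.8% of all genes were lower; 9 of 10 macrophage markers were lower in the same libraries, and their part was not tested. The 25 relatives, receptors and partners of the 10 genes did not move one way: of 22 tested in 4T1 cells 7 rose and 4 fell, against 27% and 24% of all genes, and of 24 tested in the niche 7 rose and 6 fell, against 28.5% and 25.8%. In 4T1 cells Pdp2, the phosphatase that opposes Pdk1, also fell (-1.31, SE 0.11). The receptor gene Calcrl (5.45, SE 0.39) and its partner gene Ramp1 (2.28, SE 0.28) rose, to 4.05 to 7.03 and 7.16 to 9.26 CPM. Of these levels the lung cell share gives 32.2% to 38.1% and 6.76% to 10.7%. In the niche the VEGF receptor Flt1 (1.86, SE 0.35) and the related growth factor Vegfc (1.52, SE 0.22) rose. The collagen hydroxylase subunit P4ha3 rose as well (2.98, SE 0.18), and Pdk2 fell (-1.57, SE 0.18). Macrophage and fibroblast marker sums were higher in the same niche libraries, and their part in these rises was not tested.

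**Figure D5:**
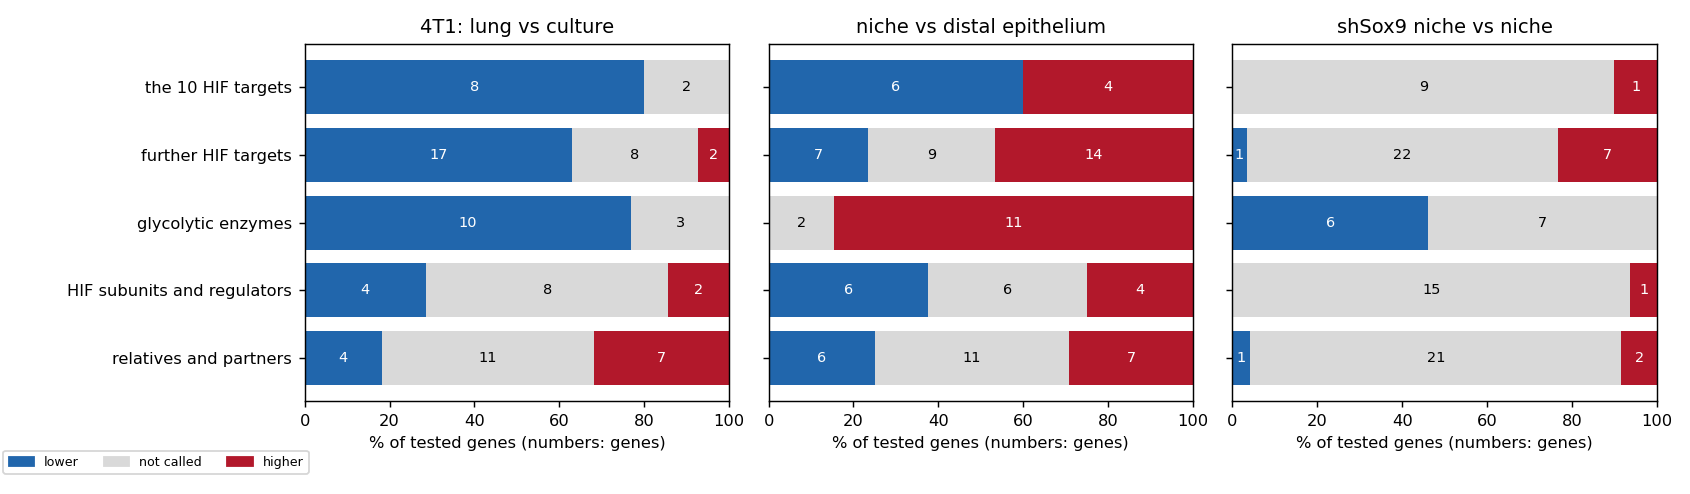
Share of the tested genes of each list that edgeR called lower (blue), higher (red) or neither (grey) in 3 comparisons, with the number of genes printed in each bar (x axis in percent of tested genes). The 10 HIF targets and the glycolytic enzymes are mostly blue in 4T1 cells, and in the niche the glycolytic enzymes are mostly red while the 10 targets are divided 6 to 4.

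Across the 15 libraries the 10 genes differed in profile. Of their 45 pairs, 26 had a positive Pearson correlation of log2 CPM, with a median of 0.31 and a range from -0.95 (Egln3 with Vegfa) to 0.94 (Pdk1 with Ankrd37); Car9, Ndrg1 and Slc2a1 formed a close trio, at 0.92 to 0.94. Against the mean profile of the other 9, Pdk1 (0.76), Ankrd37 (0.68) and Slc2a1 (0.65) were closest, while Vegfa (-0.38) and Adm (-0.24) ran against it. These values describe 15 libraries in 5 groups. The genes outside the list whose profile was most like the mean of the 10 were Zmpste24 (0.93), Pde4dip (0.93), Higd1a (0.92), Ppbp (0.91), Gm26917 (0.91), Akr1b3 (0.91), Plscr2 (0.90), Cdipt (0.90), Gpt2 (0.90) and BC029722 (0.90), by Pearson correlation over the same 15 libraries. That mean profile was highest in the 4T1 cells in vitro (0.59 to 1.12 in units of SD) and lowest in 4T1 cells in vivo (-0.64 to -0.37), with all 9 epithelial libraries between -0.26 and -0.04.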

How the data were processed

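Per the submitters' processing notes, the authors made 1 table per library with RSEM against GRCm38 and name DESeq2; not given in the sources used here were the aligner, annotation release and strand setting. Deposited expected counts, estimates per gene (11.8% to 14.1% of genes had a non-whole one), were rounded and tested with edgeR 4.0.16 in R 4.3.3: TMM, filterByExpr, a quasi-likelihood F-test, and Benjamini-Hochberg adjusted p-values across the whole table, called below 0.05. The TPM values the authors deposited served to compare genes and in an alternative with limma 3.58.1 on log2(TPM + 1). 4T1 libraries were fitted apart from the 9 epithelial ones; comparisons across them used all 15. Symbols came from GENCODE M21 (54723 of 54838 genes). Each SE is the fold change divided by the root of F. Fits were tested on simulated data. Every replicate pair differed beyond sampling noise (chi-square 8.27 to 43.4 for each degree of freedom), and none was merged. Alternatives were DESeq2 1.42.0, RLE factors, other filters and samples, a replicate block, subtraction of 4T1 or lung cell RNA shares, and single libraries left out. Named from other lists were up to 4 called genes with the largest change and at least 5 CPM in the higher group, the HIF subunits always, the 10 genes most like the members' mean, and, added after their values were seen, single genes given as examples. One gene that this rule names is not reported here. Members and lists were chosen with earlier results of these data known.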

Additional observations from a re-analysis of the deposited data

Results flagged for a closer look

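The change of 8 of the 10 genes differed between 4T1 cells (in vivo minus in vitro) and epithelium (niche minus distal) by the test of that difference (edgeR adjusted p below 0.05), as it did for 50.3% of all 18242 genes. The log2 differences were -3.44 for Car9, -2.46 for Egln3, -2.38 for Ndrg1, -2.25 for Slc2a1, -1.51 for Pdk1, -1.09 for Bnip3, -0.57 for P4ha1 and 1.29 for Vegfa. The 2 contrasts differ in kind, culture against lung in one and place within the lung in the other, so the values compare them only as measured.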

How the results depend on the processing

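Over all 6 comparisons and their alternatives, 989 of 1010 values for single genes kept their direction and 930 also kept their side of the threshold; where a result changed, the cause was not tested unless stated. On TPM, with pseudocounts of 1 and 0.1 and no TMM scaling, 2 of 10 genes were called lower in the niche against distal epithelium under either pseudocount, with Pdk1 at 0.0069 and 0.0052, Adm at 0.0092 and 0.011 and P4ha1 at 0.24 and 0.24 (log2). For the libraries labelled shSox9 against distal ones TPM gave 1 lower, with P4ha1 at 0.11 and 0.11, and against niche ones it put Ankrd37 at 0.086 and 0.089. In the difference between the changes in 4T1 cells and epithelium TPM gave 0 higher, as did subtraction of the lung cell share. Subtracting the 4T1 share put Egln3 at -0.18 in the niche and at 0.38 in that difference, gave 2 genes higher and 1 lower for shSox9 against niche, and 2 higher for 4T1 cells in vivo against niche. Without a low-count filter, 2 were higher in each of these comparisons; with all 15 libraries 0 were higher for shSox9 against niche, and with only the groups compared 2 were higher in 4T1 cells in vivo. RLE factors and DESeq2 put Ndrg1 at -0.0044 and -0.0045 there. Settings that moved the median of all genes by over 0.1 were TPM (0.56 and 0.59 niche against distal, 0.55 and 0.57 shSox9 against distal, -0.59 and -0.60 in the difference), RLE and DESeq2 (-0.12 and -0.12 for 4T1 in vivo against niche, -0.18 and -0.18 in the difference), no filter (-0.25 in the difference) and lung cell RNA subtracted (-0.10 and -0.10 in these 2).

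Leaving out 1 library at a time gave 7 to 8 genes lower in 4T1 cells and 3 to 6 lower in the niche, with 4 higher throughout. For shSox9 against niche it gave 0 to 2 higher and 0 to 1 lower, for shSox9 against distal 4 to 5 higher and 3 to 5 lower, for 4T1 in vivo against niche 1 to 2 higher, and for the difference 6 to 8 lower. Egln3 in 4T1 cells then ranged from -0.032 to 0.23, and for shSox9 against niche Ndrg1 from -0.021 to 0.24, Ankrd37 from -0.41 to 0.27 and P4ha1 from -0.22 to 0.010. The difference in 4T1 share between shSox9-labelled and niche libraries ranged from -3.43 to 1.43 percentage points. No label says that replicate numbers pair the libraries. Deviations of same-numbered libraries correlated at -0.05 to 0.07, except for 0.073 to 0.10 between niche and shSox9-labelled ones. There 6 of 6 libraries correlated best with their own number, so whether these groups are paired cannot be told. The replicate block gave 1 lower for shSox9 against niche (Slc2a1, -0.35) and 3 higher for 4T1 in vivo against niche (Egln3, Pdk1 at 0.46 and Car9 at 0.79), and with it P4ha1 was not called in the difference (-0.56, edgeR adjusted p = 0.053). Depth limits Ankrd37 most, at 27 and 26 counts over the niche and shSox9-labelled libraries.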
